A study of Mus musculus with 4 samples.

Results

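The 43 genes described here make ribosomes: they encode subunits and factors of RNA polymerase I, proteins of the small nucleolar ribonucleoproteins (snoRNPs) and assembly factors of the 40S and 60S ribosomal subunits. They were taken by gene name from the probes of a two-colour array, and all 43 were among the 18451 genes tested. The cells were mouse spermatogonial stem cells (SSCs), germ cells of the testis that renew themselves, from day 5 mice of the cross C57/BL6 x DBA/2 F1. In the -F+S group, FGF2 was left out of the medium at passage and SU5402, which inhibits the kinase of FGF receptors, was added, with 12 h given as the time. The control group stayed in the normal medium, free of serum, where GDNF was at 40 ng/ml and FGF2 at 5 ng/ml. Each of 4 arrays held 1 -F+S sample labelled with Cy3 and 1 control sample labelled with Cy5. The labels give 12 h for the -F+S cells only, while the time of the control cells and how many lines were used stay unstated there.

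RNA polymerase I transcribes the ribosomal RNA precursor in the nucleolus, with the factors UBF, RRN3 and SL1 at the promoter. snoRNPs of the box C/D class methylate that RNA, those of the box H/ACA class turn uridines into pseudouridine, and large assembly complexes then cleave it and fold it with ribosomal proteins into a small (40S) and a large (60S) subunit. Growth factors are widely known to set the pace of this work through MAP kinases, mTOR and MYC, and MYC binds the sequence CACGTG, an E-box, in many of these genes.

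Ratios below are log2 of -F+S over control on the same array, taken relative to a loess curve over brightness on that array. A negative value thus means less of that RNA in -F+S cells relative to genes of similar brightness. The genes described here were bright, with a median log2 intensity of 14.1 against 11.3 for all genes tested. A gene is called where the adjusted p of limma's test against 0, over all genes, is below 0.05. SE is the standard error of that fit and n is 4 arrays throughout. With -F+S in Cy3 on all 4 arrays, an effect of the dye on a single gene cannot be told apart from the treatment. The p-values measure the spread between these 4 pairs of samples. In bulk RNA, fewer cells of a type and less RNA per cell cannot be told apart. Of all genes tested, 30.9% were called lower and 37.5% higher. Across the cultures, 7 of 13 measured markers of undifferentiated spermatogonia were called lower and none higher. Their summed linear signal was 225978 to 252385 in -F+S samples, against 269364 to 308360 in control samples. Of 12 Sertoli cell markers 11 were called higher, with sums of 503519 to 535195 in -F+S samples and 114653 to 121522 in control samples. Among these 11, Fshr was well above background on 4 arrays in -F+S samples but on 1 in control samples. Fshr thus passed the filter on dim probes only through the group where it was higher. Of 12 fibroblast and feeder markers 11 were called higher, with sums of 1707710 to 1838730 in -F+S samples and 620716 to 696874 in control samples. All 8 leukocyte markers were called lower, with sums of 51381.6 to 64238 in -F+S samples and 122649 to 146929 in control samples. The part of these other cell types in the ratios below was not tested.

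The ribosome biogenesis genes were mostly lower in -F+S cells, by small steps. Of the 43 genes, 27 were called lower (62.8%) and 2 higher (4.65%), and 14 were not called. Of all 18451 genes tested, 30.9% were called lower and 37.5% higher. The median ratio of the 43 genes was -0.29, against 0.02 for all genes, and on single arrays it was -0.33, -0.30, -0.37 and -0.31. The ratio was below 0 in 36 of the 43, against 8899 of all 18451 genes. Of the genes called lower, 10 were at least 1.5-fold lower, and the share of such falls over all genes was not counted. Rrp9 and Polr1b were the 2 genes at least 2-fold lower, against 305 of all 18451 genes.

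The ratio had the same sign on all 4 arrays in 28 of the 43 genes, against 13565 of all 18451 genes. Among the genes called lower, where the call itself favours this, Rrp12 and Gnl3 did not keep 1 sign, and the -F+S and control levels overlapped in Rrp12, Rrp1b and Gnl3. Between any 2 arrays, Pearson's r of the ratios across the 43 genes was 0.48 to 0.86, a description over genes that share RNA and arrays.

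**Figure D1:**
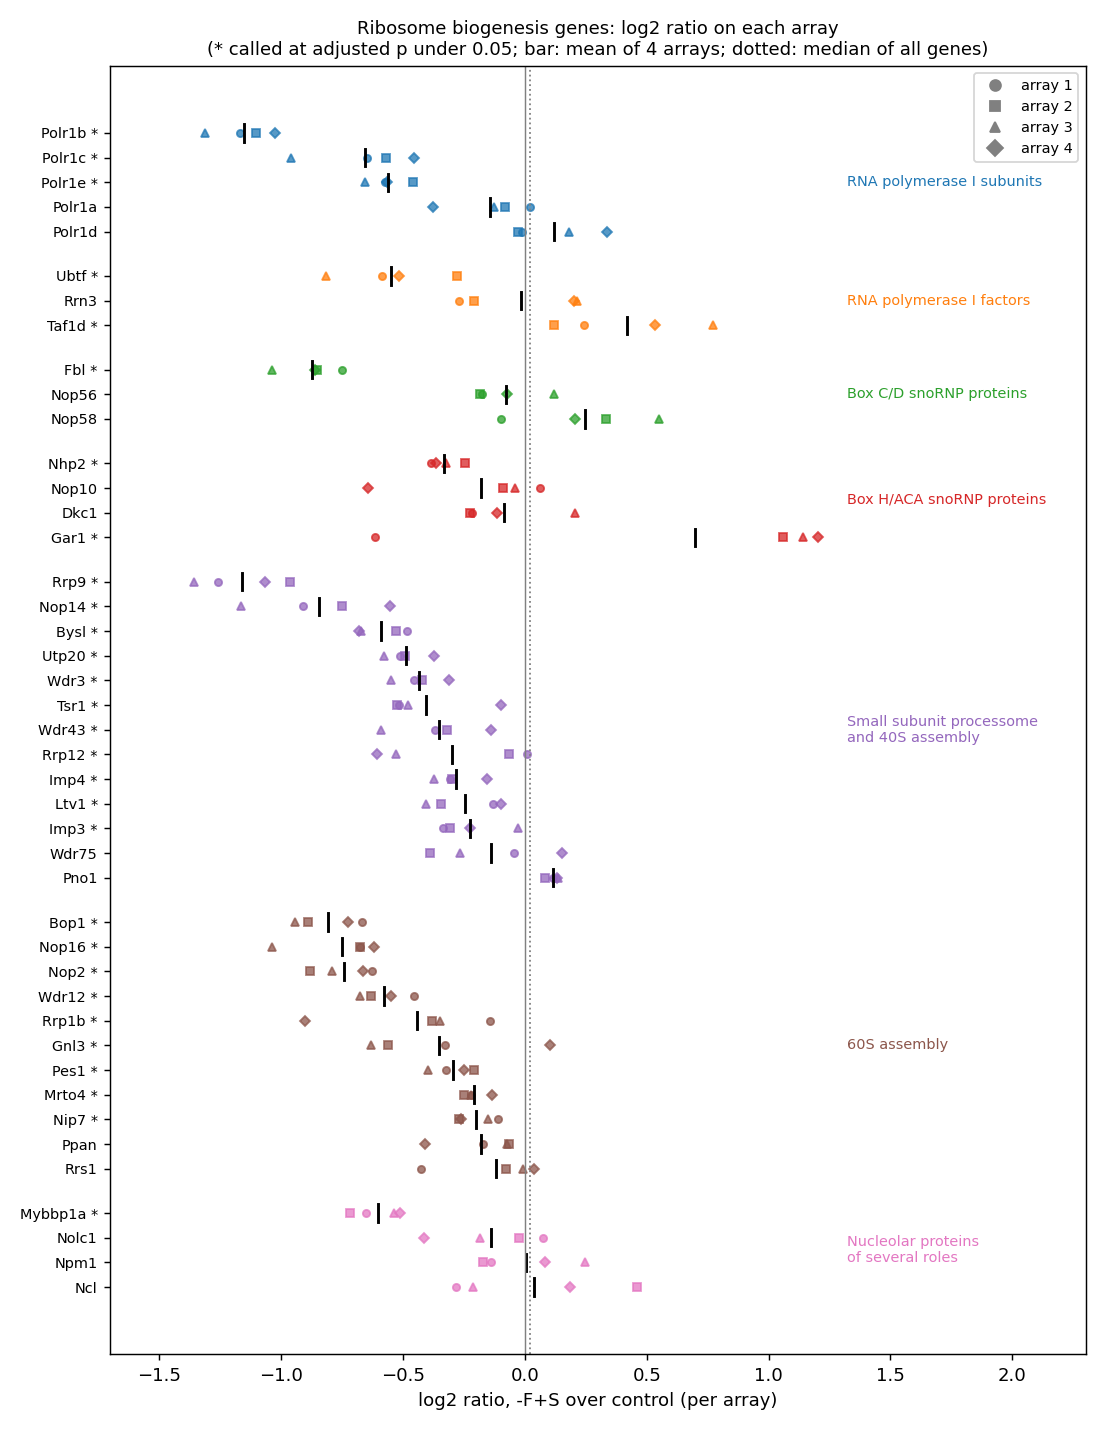
Log2 ratio of -F+S over control (horizontal axis) for each of the 43 genes (rows, grouped by role). Each symbol is 1 of 4 arrays, the short bar is their mean, and a star marks a called gene. Most of the 40S and 60S assembly genes lie left of the dotted line, which is the median of all genes at 0.02, and Gar1 has 1 array on the other side from the other 3.

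Polymerase I subunits split into 3 that were called lower and 2 that were not called. Polr1b encodes the second-largest subunit, which forms the active site together with the largest one. Its normalised log2 intensities were 12.65, 12.58, 12.53 and 12.64 in -F+S cells on arrays 1 to 4, against 13.82, 13.69, 13.84 and 13.67 in control cells. The groups were far apart and all -F+S levels lay within a narrow band. The ratio was -1.15 (SE 0.073, adjusted p = 9.12e-07), or 2.22-fold lower. Polr1e, a subunit that helps the enzyme engage its promoter, had levels of 11.30, 11.46, 11.41 and 11.41 in -F+S cells, against 11.88, 11.92, 12.06 and 11.97 in control cells. No level of one group reached the other, and the ratio was -0.56 (SE 0.069, adjusted p = 7.33e-05). Polr1c, a subunit shared with RNA polymerase III, had 15.69, 15.90, 15.58 and 15.86 in -F+S cells, against 16.34, 16.47, 16.54 and 16.31 in control cells. These groups also stayed apart, with array 3 showing the widest gap, and the ratio was -0.66 (SE 0.090, adjusted p = 0.000154).

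The largest subunit and the partner of Polr1c did not pass the test. Polr1a, which encodes the largest subunit, had ratios of 0.02, -0.08, -0.13 and -0.38 with a mean of -0.14 (adjusted p = 0.149). Polr1d, which pairs with Polr1c in both polymerases I and III, had ratios of -0.01, -0.03, 0.18 and 0.34 with a mean of 0.12 (adjusted p = 0.219). On each array Polr1b lay below Polr1a, by 0.65 to 1.19 on the log2 scale. On each array Polr1c also lay below Polr1d, by 0.54 to 1.14. With the scanner's own log ratio Polr1a was called lower (-0.30, adjusted p = 0.0148). With that log ratio the median of all genes was -0.12, and 42.6% of them were called lower, against 30.9% as reported. This shift of all genes applies to every single-gene value given below with the scanner's own log ratio.

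The factors that bring polymerase I to its promoter moved in different directions. Ubtf encodes UBF, which binds along the ribosomal RNA genes. Its levels were 14.45, 14.75, 14.44 and 14.48 in -F+S cells, against 15.04, 15.03, 15.25 and 14.99 in control cells. Levels did not overlap, and the ratio was -0.55 (SE 0.091, adjusted p = 0.000515). A further Ubtf probe gave -0.52, a fall of similar size. The positions of these probes overlap at their ends, so both read 1 stretch of the gene. Rrn3, also called TIF-IA, links the polymerase to the promoter and is a known target of growth factor signals at the protein level. It had 13.79, 13.84, 13.84 and 13.91 in -F+S cells, against 14.06, 14.05, 13.63 and 13.71 in control cells. The arrays disagreed in sign, 2 below 0 and 2 above, with a mean of -0.01 (adjusted p = 0.904), and a much dimmer probe of Rrn3 was called lower at -0.32, as was the mean of its probes (-0.17, adjusted p = 0.0341).

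Taf1d, a subunit of the promoter factor SL1, was the 1 member of this group that was called higher. Its levels were 12.93, 12.89, 12.84 and 12.89 in -F+S cells, against 12.69, 12.77, 12.07 and 12.35 in control cells. The -F+S levels were nearly constant while the control levels spread, and the groups did not overlap. The ratio was 0.42 (SE 0.11, adjusted p = 0.00665), and 2 other probes of Taf1d were called higher, at 0.40 and 0.28. A further probe at -0.11 was not called, and with the scanner's own log ratio the call was lost (0.24, adjusted p = 0.0991), as it was with median-centred processed signals (0.29, adjusted p = 0.0766). The remaining polymerase I genes, taken from a wider list, included the SL1 subunits Taf1c, Taf1a and Taf1b, which were called lower at -0.90, -0.66 and -0.29. Also called lower were the subunit genes Znrd1 at -0.34 and Twistnb at -0.24. Ttf1, the termination factor (-0.17), and the subunit gene Cd3eap (-0.06) were not called.

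**Figure D2:**
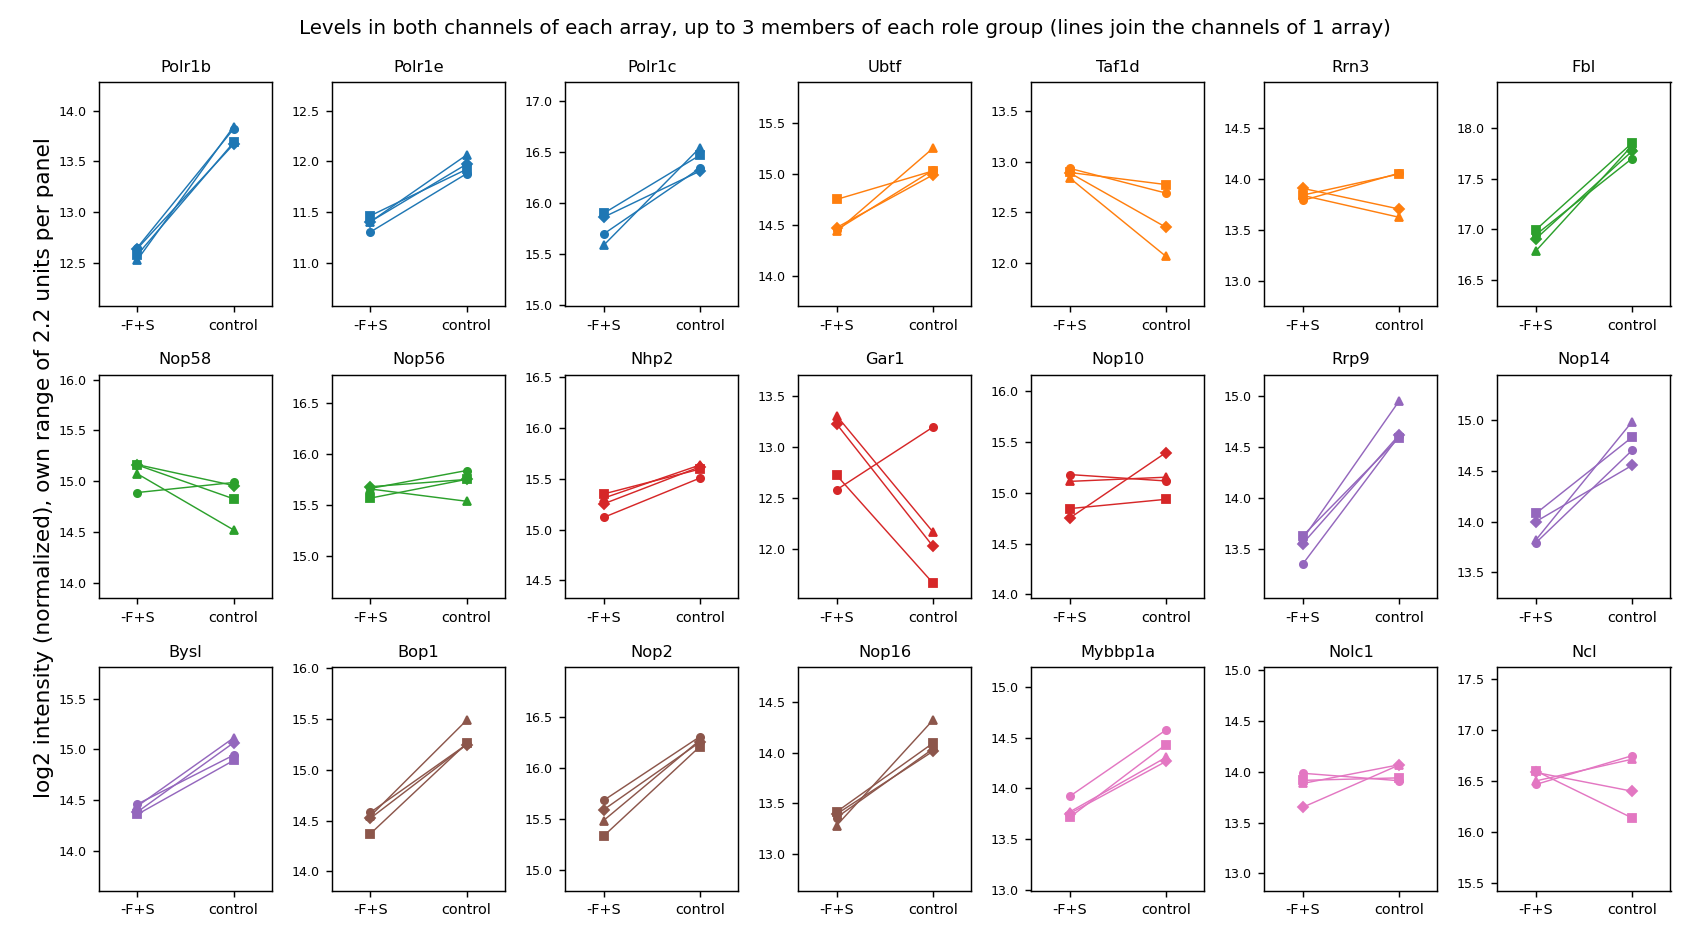
Normalised log2 intensity (vertical axis, a range of 2.2 units in every panel) of up to 3 genes of each role group in -F+S cells (left) and control cells (right). Each line joins the channels of 1 array. Every line rises to the right for Polr1b, Fbl, Rrp9, Bop1 and Mybbp1a, and the lines cross for Rrn3, Nop10 and Ncl.

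Within the box C/D snoRNP, the enzyme was called lower and its scaffold proteins were not called. Fbl encodes fibrillarin, the methyltransferase of this particle. It had 16.95, 17.00, 16.79 and 16.91 in -F+S cells, against 17.70, 17.85, 17.82 and 17.77 in control cells. All 4 arrays showed a similar gap, and the ratio was -0.88 (SE 0.073, adjusted p = 5.9e-06), or 1.83-fold lower. The size depended on the processing, being -1.41 with median centring and -0.57 with median-centred processed signals. Nop56, a scaffold protein on which fibrillarin sits, had 15.66, 15.57, 15.65 and 15.68 in -F+S cells, against 15.84, 15.75, 15.53 and 15.75 in control cells. Its groups overlapped and it was not called (-0.08, adjusted p = 0.386). Nop58, the other scaffold protein, had 14.89, 15.16, 15.07 and 15.16 in -F+S cells, against 14.99, 14.83, 14.52 and 14.96 in control cells. Array 1 was below 0 and the others above it, with a mean of 0.25 (adjusted p = 0.0545), and without array 1 it was called higher (0.36, adjusted p = 0.0104). On each array Fbl lay below Nop56, by 0.57 to 1.16, and below Nop58, by 0.65 to 1.59. Snu13, a snoRNP gene of the wider list, was called lower at -0.35 (adjusted p = 0.00361).

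The box H/ACA proteins gave 1 call in each direction. Nhp2, a core RNA-binding protein of this particle, had 15.12, 15.35, 15.31 and 15.25 in -F+S cells, against 15.51, 15.59, 15.63 and 15.62 in control cells. Its groups did not overlap, and the ratio was -0.33 (SE 0.067, adjusted p = 0.00182). Nop10, the smallest core protein, had 15.18, 14.84, 15.11 and 14.75 in -F+S cells, against 15.12, 14.94, 15.15 and 15.40 in control cells. Only array 4 showed a wide gap, and Nop10 was not called (-0.18, adjusted p = 0.184). Dkc1, the pseudouridine synthase, was not called at -0.09 (adjusted p = 0.392), and its second probe stood at 0.21. With the base composition trend removed Dkc1 was called lower (-0.23, adjusted p = 0.0191), as it was with the scanner's own log ratio (-0.29, adjusted p = 0.0300).

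Gar1, which joins this particle late in its maturation, was called higher on uneven data. It had 12.58, 12.72, 13.31 and 13.23 in -F+S cells, against 13.20, 11.66, 12.17 and 12.03 in control cells. Array 1 stood apart: its control level was the highest of the 4 and its ratio was -0.62, while arrays 2 to 4 gave 1.06, 1.14 and 1.20. The mean was 0.70 (SE 0.26, adjusted p = 0.0392). Without array 1 it was 1.13 (adjusted p = 7.77e-06), and without array 2, 3 or 4 the call was lost (adjusted p = 0.127, 0.164 and 0.166). The call was also lost with the scanner's own log ratio (adjusted p = 0.139), without the filter on dim probes (0.0709) and with the base composition trend removed (0.0701). Gar1 rests on 1 probe, printed below with the 3 probes behind Rrp9 and Nop14, since these values turn on single oligonucleotides. Each is 60 bases long, written 5′ to 3′ in lower case, with its position in mm9 as the files give it.
Gar1, chr3:129532258-129532317, minus strand: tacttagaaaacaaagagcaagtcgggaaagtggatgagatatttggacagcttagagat
Rrp9, chr9:106386845-106387461, plus strand: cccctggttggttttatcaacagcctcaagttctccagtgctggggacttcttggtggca
Nop14, brighter probe, chr5:34986699-34987391, minus strand: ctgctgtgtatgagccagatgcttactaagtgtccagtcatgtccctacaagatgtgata
Nop14, dimmer probe, chr5:34996532-34996591, minus strand: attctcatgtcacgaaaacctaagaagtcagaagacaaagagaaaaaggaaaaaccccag
The Rrp9 probe covers 617 bases of the genome and the brighter Nop14 probe 693, more than their own length.

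Factors of the small subunit were mostly called lower. Of 13 genes of the small subunit processome and of 40S assembly, 11 were called lower and none higher. Over all genes, 30.9% were called lower. The median ratio of the 13 genes was -0.35. With median centring Imp4, Wdr43, Ltv1 and Rrp12 lost their calls. Rrp9, a protein of the U3 snoRNP that guides the first cleavages of the precursor, had 13.35, 13.63, 13.60 and 13.55 in -F+S cells, against 14.61, 14.59, 14.95 and 14.62 in control cells. The gap was about the same on all 4 arrays and the groups were well separated. The ratio was -1.16 (SE 0.083, adjusted p = 1.95e-06), or 2.24-fold lower. Bysl, which acts in 40S maturation, had 14.46, 14.36, 14.44 and 14.38 in -F+S cells, against 14.94, 14.89, 15.11 and 15.06 in control cells. No levels overlapped, and the ratio was -0.59 (SE 0.071, adjusted p = 6.43e-05). All 3 probes of Bysl were called lower, though at different sizes: -0.59, -0.97 and -0.28.

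Nop14, a core protein of the processome, gave opposite calls from its 2 probes. The brighter one had 13.79, 14.08, 13.82 and 14.0002 in -F+S cells, against 14.70, 14.83, 14.98 and 14.55 in control cells. These levels did not overlap, and the ratio was -0.84 (SE 0.099, adjusted p = 5.52e-05). The mean of both probes was -0.23. The dimmer probe was called higher at 0.39, with ratios of 0.41, 0.12, 0.82 and 0.19. On each array it lay above the brighter probe, by 0.74 to 1.98 on the log2 scale. The probes lie at different places of the gene, and which of its RNAs each one reads was not tested.

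The other processome genes had smaller ratios. Utp20, a large scaffold protein, had a ratio of -0.49 (adjusted p = 0.000193), with -0.51, -0.49, -0.58 and -0.37 on single arrays. Wdr3 and Wdr43, which hold WD40 repeats and belong to the processome, had ratios of -0.43 and -0.35. Wdr75, a partner of Wdr43 in the same subcomplex, was not called at -0.14 (adjusted p = 0.226), but was called lower with the scanner's own log ratio (-0.31, adjusted p = 0.0289). Imp3 and Imp4 bind the U3 RNA together and had ratios of -0.22 (adjusted p = 0.0257) and -0.28 (adjusted p = 0.00532). The calls of Imp4 and Wdr43 were lost with median centring (adjusted p = 0.172 and 0.0768). The call of Imp3 was lost without array 1, 2 or 4 (adjusted p = 0.110, 0.105 and 0.0560).

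Of the later-acting Tsr1, Ltv1, Rrp12 and Pno1, all but Pno1 were called lower. Tsr1, a GTPase-like factor of the late precursor, had a ratio of -0.40 (adjusted p = 0.00272), and its second probe gave -0.58. On array 4 its ratio was -0.10, apart from -0.52, -0.52 and -0.48 on the others. Ltv1, an export and assembly factor, had a ratio of -0.24 (adjusted p = 0.0199). The call of Ltv1 was lost without array 2 or 3 (adjusted p = 0.0901 and 0.0818) and with median centring (0.396). Rrp12, which acts in nuclear export, had ratios of 0.01, -0.07, -0.53 and -0.60 with a mean of -0.30 (adjusted p = 0.0387). Its levels overlapped, and the call was lost without array 3 or 4 (adjusted p = 0.161 and 0.166), without the filter on dim probes (0.0565), with median centring (0.282) and with the base composition trend removed (0.0932). Pno1, which places the nuclease of the last 18S cleavage, was not called at 0.12 (adjusted p = 0.142), and turned to -0.05 with median centring and with the scanner's own log ratio.

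Factors of the large subunit were called lower in 9 of 11 genes, where 30.9% of all genes were. None was called higher, and the median was -0.35. Bop1, Pes1 and Wdr12 form 1 complex, PeBoW, which the 60S precursor needs. Bop1 had 14.58, 14.37, 14.55 and 14.52 in -F+S cells, against 15.25, 15.26, 15.49 and 15.25 in control cells. The groups were clearly apart on all arrays, and the ratio was -0.81 (SE 0.075, adjusted p = 1.19e-05), or 1.75-fold lower. Wdr12 had a ratio of -0.58 (adjusted p = 7.16e-05), and of its dimmer probes 1 was called lower at -0.56 and 1 was not called at -0.17. Pes1 had -0.29 (adjusted p = 0.00411) from its brighter probe and 0.03 from the other, which was not called. On each array Bop1 lay below Pes1, by 0.35 to 0.68, and Wdr12 lay below Pes1, by 0.13 to 0.42. With the mean of its probes Pes1 was not called (-0.13, adjusted p = 0.0774).

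Nop2 and Nop16 followed Bop1 in this group. Nop2, a cytosine methyltransferase of 28S ribosomal RNA, had 15.68, 15.33, 15.48 and 15.59 in -F+S cells, against 16.31, 16.21, 16.28 and 16.26 in control cells. The control levels were tight and the -F+S levels all lay below them, with a ratio of -0.74 (SE 0.073, adjusted p = 1.74e-05). Nop16, a nucleolar 60S factor known as a MYC target, had 13.36, 13.42, 13.28 and 13.39 in -F+S cells, against 14.03, 14.09, 14.32 and 14.01 in control cells. Array 3 showed a wider gap than the others, and the ratio was -0.75 (SE 0.085, adjusted p = 4.57e-05), with -0.70 from a second probe.

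The remaining 60S genes had smaller ratios. Rrp1b, a nucleolar protein that also binds protein phosphatase 1, had a ratio of -0.44 (adjusted p = 0.00679), and its other probes gave -0.75, -0.53 and, not called, -0.09. Without array 4 Rrp1b stood at -0.29 and was still called, and with median centring it was not called (-0.40, adjusted p = 0.0518). Gnl3, the GTPase nucleostemin of stem and tumour cells, had ratios of -0.33, -0.56, -0.63 and 0.10 with a mean of -0.35 (adjusted p = 0.0217). The groups of Gnl3 overlapped through array 4, and its call was lost without array 1, 2 or 3 (adjusted p = 0.0509, 0.0941 and 0.105) and with median centring (0.0845). Mrto4, which prepares the stalk of the 60S subunit, had a ratio of -0.21 (adjusted p = 0.0197), lost without array 1 or 2 (0.0664 and 0.0833) and with median centring (0.179).

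Of Nip7, Ppan and Rrs1, Nip7 alone was called. Nip7, a 60S factor with an RNA-binding PUA domain, had a ratio of -0.20 (adjusted p = 0.0274). That call was lost without array 2 or 4 (adjusted p = 0.114 and 0.0733) and with median-centred processed signals (0.235). A far dimmer probe, assigned to Nip7 by an older alias, was called higher at 0.39. This dimmer probe was well above background on 4 arrays in -F+S samples but on 2 in control samples. It thus passed the filter only through the group where it was higher. Ppan, a 60S factor of the Brix family, was not called at -0.18 (adjusted p = 0.0720), though its levels did not overlap. It was called lower with median centring (-0.48, adjusted p = 0.0133) and with the scanner's own log ratio (-0.27, adjusted p = 0.0224). Rrs1, which brings the 5S particle into the 60S precursor, was not called at -0.12 (adjusted p = 0.260), but was called lower with the base composition trend removed (-0.26, adjusted p = 0.0175) and with the scanner's own log ratio (-0.30, adjusted p = 0.0294).

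Of the 4 nucleolar proteins with several roles, Mybbp1a alone was called, and with median centring Ncl and Npm1 were called lower as well. Mybbp1a, which binds MYB and represses ribosomal RNA transcription, had 13.92, 13.71, 13.77 and 13.75 in -F+S cells, against 14.57, 14.43, 14.30 and 14.26 in control cells. The groups did not overlap, and the ratio was -0.60 (SE 0.070, adjusted p = 5.34e-05). Nolc1, a chaperone of snoRNPs, had 13.98, 13.91, 13.88 and 13.65 in -F+S cells, against 13.91, 13.94, 14.07 and 14.07 in control cells. Array 4 alone showed a gap, and Nolc1 was not called at -0.14 (adjusted p = 0.198), while its dimmer probe was called lower at -0.40 and the mean of both was too (-0.27, adjusted p = 0.00512). It was also called lower with the scanner's own log ratio (-0.31, adjusted p = 0.0223).

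Nucleolin and nucleophosmin were not called. Ncl, which encodes nucleolin, had 16.47, 16.60, 16.50 and 16.59 in -F+S cells, against 16.75, 16.14, 16.72 and 16.40 in control cells. The control levels spread on both sides of the -F+S levels, with a mean ratio of 0.04 (adjusted p = 0.793). Of its other probes, the one at 0.07 shared much of its sequence with the brightest probe. The one at 0.03 was far dimmer, with a mean log2 intensity of 9.09. The remaining probe, at 13.2, was called lower at -0.50, with -0.56, -0.47, -0.48 and -0.50 on single arrays. Npm1, which encodes nucleophosmin, had ratios of -0.14, -0.17, 0.25 and 0.08 with a mean of 0.01 (adjusted p = 0.958). With median centring in place of loess both turned, Ncl at -0.37 (adjusted p = 0.0406) and Npm1 at -0.42 (adjusted p = 0.0351).

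Probes of the same gene bore on how far a ratio could be read. The 43 genes had 72 probes, of which 70 were well above background and were kept. Of these, 38 were called lower, 6 higher and 26 not called. These calls come from a separate fit over all kept probes, and the shares called over all kept probes were not counted. In 12 of the 19 genes with several kept probes all probes had the same sign, and in Nop14 and Nip7 probes were called in both directions. The higher call in Nip7 came from the dim probe that passed the filter only through -F+S samples. Polr1a, Polr1d and Nop56 had probes of 1 sign, none of them called. Across the 43 genes the ratio correlated with the G+C content of the probe (Pearson's r -0.52, a description over genes). Over all genes tested the same r was -0.18. With the trend over all kept probes removed on each array, 28 of the 43 genes were called lower, 1 higher, and their median was -0.29. The r across the 43 genes after this removal was not calculated, so how much of their own trend remained was not tested.

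**Figure D3:**
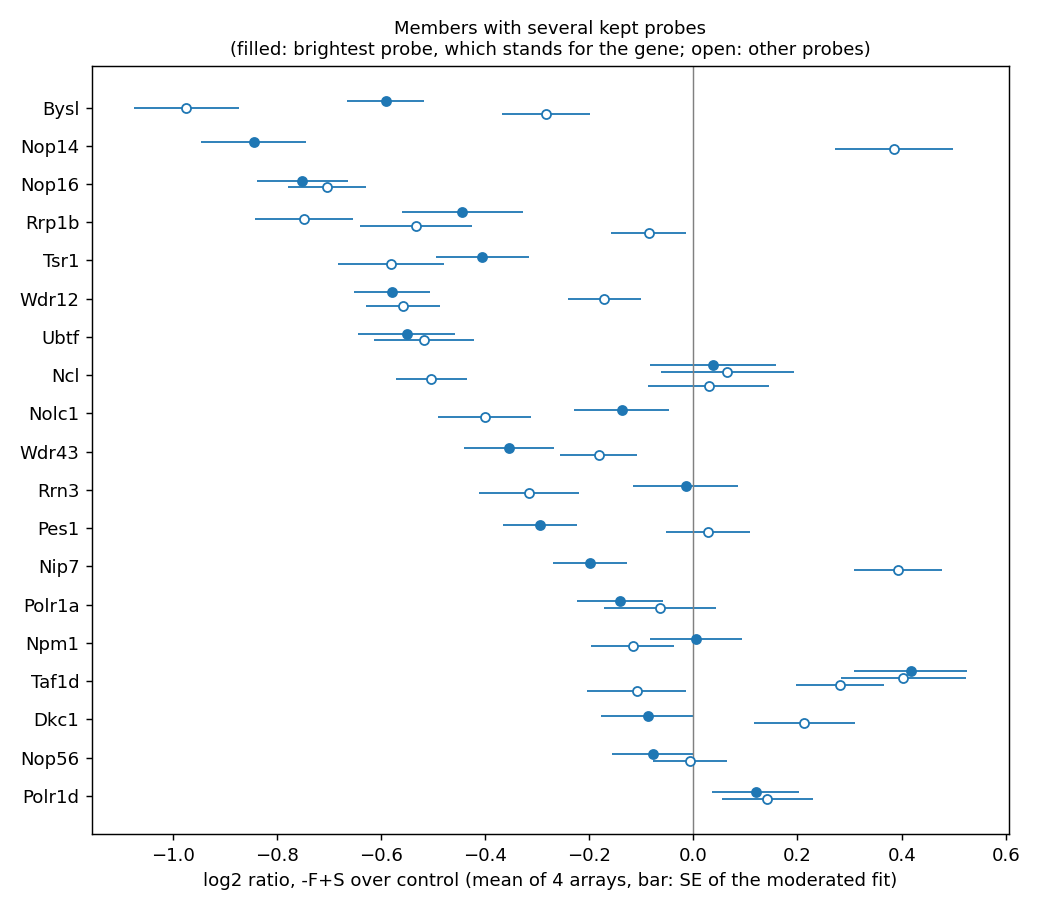
Log2 ratio of -F+S over control (horizontal axis, mean of 4 arrays with the SE of the fit as bars) for each kept probe of the 19 genes that have several. Filled circles are the brightest probe, which stands for the gene, and open circles are the others. Nop14 and Nip7 have probes on both sides of 0, at -0.84 and 0.39 and at -0.20 and 0.39.

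In a list of 101 other ribosome biogenesis genes, 61 were called lower, 11 higher and 29 not called, where 30.9% of all genes were called lower and 37.5% higher. Their median was -0.26. By role, 5 of 7 polymerase I genes, 4 of 6 snoRNP genes, 26 of 42 small subunit genes and 26 of 46 large subunit genes were called lower. The 5 lowest were Dhx37 (-1.34) and Noc4l (-1.06), both of the small subunit, Nol9 (-1.15), a kinase of ribosomal RNA processing, Mdn1 (-1.03), a giant ATPase of 60S assembly, and Pwp2 (-1.01), a processome protein. The 5 highest were Sbds (1.08), which frees the 60S subunit for use in the cytoplasm, Nvl (0.51), an ATPase of 60S assembly, Tsr3 (0.42), which modifies 18S ribosomal RNA, Tsr2 (0.40), which escorts a small subunit protein, and Dcaf13 (0.36), a processome protein. Sbds had levels of 14.33, 14.34, 14.22 and 14.31 in -F+S cells, against 13.40, 13.34, 12.88 and 13.28 in control cells, with no overlap.

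The other nuclear RNA polymerases gave a mixed comparison. Of 8 subunits found only in RNA polymerase II, 3 were called lower and none higher, a share of lower calls (37.5%) near the 30.9% of all genes. Their median was -0.10, and Polr2b, the counterpart of Polr1b, had a ratio of -0.54. Of 11 subunits found only in RNA polymerase III, 6 were called lower (54.5%) and 2 higher, with a median of -0.25. Polr3b, the counterpart of Polr1b in that enzyme, had a ratio of -0.93, and Polr3a, its largest subunit, of -0.70. Polr3k at 0.35 and Crcp at 0.27 were called higher. Of the 5 subunits common to all 3 enzymes, Polr2e was called lower at -0.49, Polr2l was called higher at 0.26 and the others were not called. Second-largest subunits were thus called lower in all 3 polymerases, while the largest subunits of polymerases I and II (Polr2a at 0.01) were not called.

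**Figure D4:**
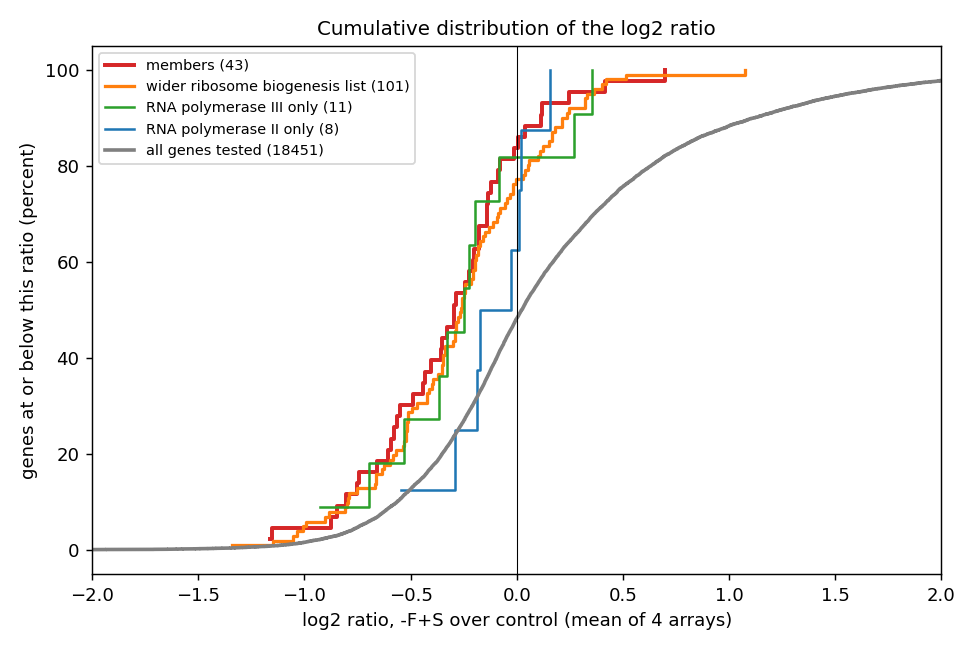
Share of genes (vertical axis, percent) at or below each log2 ratio of -F+S over control (horizontal axis, mean of 4 arrays). Steps show the 43 genes, the 101 other ribosome biogenesis genes, subunits found only in RNA polymerase III or II, and all 18451 genes. The curves of the 43 and of the 101 genes lie left of that of all genes over most of the range, with medians of -0.29, -0.26 and 0.02.

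Promoter windows were read for the E-box that MYC binds, as a description of sequence only. RefSeq (GRCm38.p6) windows of 250 bases before to 50 after the gene start were found for 38 of the 43 genes, and Fbl, Bop1, Rrp12, Npm1 and Rrs1 had none. CACGTG, searched on both strands, was present in 10 of the 38 genes (26.3%), against 8.09% of 27025 genes with windows. Of the genes with a window, 8 of 24 called lower and 2 of the 14 others held it. They were Imp4, Ltv1, Mybbp1a, Nop2, Pes1, Tsr1, Utp20 and Wdr43, called lower, and Pno1 and Rrn3, not called. The related CACGCG was present in 34.2% of the 38 genes and 10.49% of all, CCGGAAG, a motif of ETS factors, in 31.6% and 9.93%, and GCATGCGC, the NRF1 motif, in 5.26% and 3.05%. The members' windows had a higher G+C content (58.8%) than all windows (53.8%), and its part in these shares was not tested.

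Of the 5 genes with the largest falls, Rrp9, Polr1b and Nop14 had a window, and none of these windows held any of the 4 motifs. They are shown with the windows of Nop2 and Mybbp1a, which were chosen after their values were seen because they fell and hold an E-box. Letters run 5′ to 3′ on the strand of the gene, and capitals mark CACGTG.
Rrp9, chr9:106477059-106477358, plus strand: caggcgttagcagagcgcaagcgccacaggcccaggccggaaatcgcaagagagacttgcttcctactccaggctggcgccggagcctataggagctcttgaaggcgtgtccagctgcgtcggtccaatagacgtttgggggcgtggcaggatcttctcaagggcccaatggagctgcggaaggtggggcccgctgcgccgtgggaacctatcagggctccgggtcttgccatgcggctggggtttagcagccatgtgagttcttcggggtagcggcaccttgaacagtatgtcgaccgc
Polr1b, chr2:129100746-129101045, plus strand: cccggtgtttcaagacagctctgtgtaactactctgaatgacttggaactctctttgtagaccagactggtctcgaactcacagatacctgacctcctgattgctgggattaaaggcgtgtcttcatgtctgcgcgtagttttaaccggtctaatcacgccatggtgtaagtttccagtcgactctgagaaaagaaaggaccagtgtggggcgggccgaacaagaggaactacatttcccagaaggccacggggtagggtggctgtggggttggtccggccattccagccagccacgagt
Nop14, chr5:34660099-34660398, minus strand: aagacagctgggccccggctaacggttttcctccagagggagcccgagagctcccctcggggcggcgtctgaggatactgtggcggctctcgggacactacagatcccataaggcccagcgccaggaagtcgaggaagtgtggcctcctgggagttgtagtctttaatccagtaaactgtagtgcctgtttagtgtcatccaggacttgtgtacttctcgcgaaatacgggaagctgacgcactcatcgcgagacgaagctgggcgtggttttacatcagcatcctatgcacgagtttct
Nop2, chr6:125131633-125131932, plus strand: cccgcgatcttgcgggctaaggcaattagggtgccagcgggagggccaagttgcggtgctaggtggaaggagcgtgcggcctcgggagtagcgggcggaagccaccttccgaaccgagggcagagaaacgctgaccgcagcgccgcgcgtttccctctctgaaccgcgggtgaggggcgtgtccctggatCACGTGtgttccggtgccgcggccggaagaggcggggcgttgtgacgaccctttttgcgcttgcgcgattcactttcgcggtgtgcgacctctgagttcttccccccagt
Mybbp1a, chr11:72441077-72441376, plus strand: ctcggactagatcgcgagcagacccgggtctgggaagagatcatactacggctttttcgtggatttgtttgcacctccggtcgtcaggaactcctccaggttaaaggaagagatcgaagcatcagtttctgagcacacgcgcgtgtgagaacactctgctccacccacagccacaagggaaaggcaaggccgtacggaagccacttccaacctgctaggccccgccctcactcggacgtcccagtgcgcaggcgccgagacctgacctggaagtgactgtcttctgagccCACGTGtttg
The E-box starts 60 bases before the gene start in Nop2 and at base 41 after it in Mybbp1a. The ratio was -0.74 for Nop2, -0.60 for Mybbp1a, -1.16 for Rrp9 and -1.15 for Polr1b. These genes were chosen with their values known, and a link between the E-box and the ratio was not tested.

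The direction of the median held under each of the 13 other ways of processing, while its size did not. The 43 genes had a median of -0.51 with the scanner's own log ratio, where all genes together shifted to -0.12, and of -0.41 with median centring. With the second-brightest probe, which exists for 19 of the genes, the median was -0.12 and 7 were called lower. Of all 6608 genes with such a probe, 26.9% were called lower, and their median was 0.06. With their brightest probe, the 19 genes had a median of -0.20 and 10 calls of lower, where 30.9% of all genes were called lower.

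Of the 29 called genes, 20 had a ratio that moved by over 1.5 times in the same direction under at least 1 other way of processing. With median centring, Polr1c (-1.002), Nhp2 (-0.58), Imp3 (-0.41), Pes1 (-0.47) and Nip7 (-0.47) had larger falls. With the scanner's own log ratio, the falls of Tsr1 (-0.75), Imp4 (-0.57), Rrp12 (-0.56), Wdr43 (-0.55), Gnl3 (-0.54), Ltv1 (-0.51), Mrto4 (-0.39) and Imp3 (-0.37) were larger. With the base composition trend removed, Ubtf (-0.29), Bysl (-0.38) and Nhp2 (-0.22) had smaller falls and were still called. The split of calls over all genes also moved: 54.9% of called genes were higher in the values above, 41.6% with the scanner's own log ratio and 47.1% with median-centred processed signals.

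**Figure D5:**
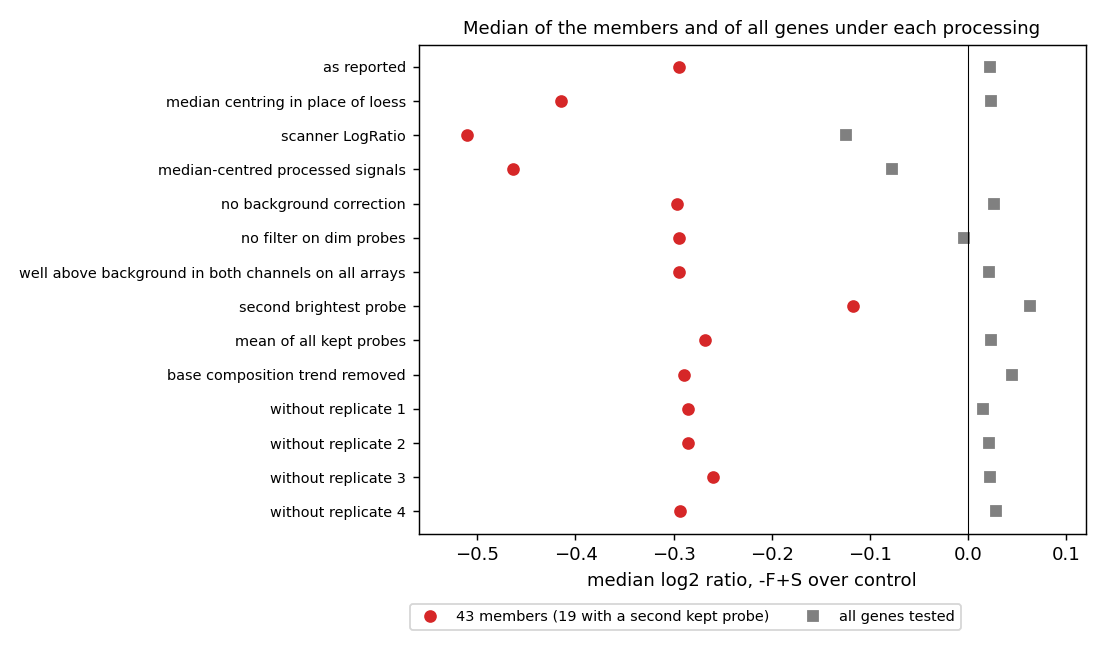
Median log2 ratio of -F+S over control (horizontal axis) under each way of processing (rows), for the 43 genes (circles) and for all genes tested (squares). The circles lie left of the squares in every row, from -0.51 with the scanner's own log ratio to -0.12 with the second-brightest probe.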

How the data were processed

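RNA of 4 -F+S and 4 control samples was read on 4 two-colour arrays (45018 spots, 1639 of them controls) on 1 slide in 1 scan, per the file headers. The deposited spot values are intensity values from Agilent Feature Extraction 10.5.1.1, per the submitters' processing notes. Per the file headers, the deposited LogRatio is a log10 ratio with red on top. The value table deposited by the authors holds log2 values of unstated scale. It equalled log2 of green over red processed signal, with no centring, within 0.001 for 100% of 40929 singly printed probes, and its column medians were -0.263, 0.012, 0.112 and -0.058.

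Background was corrected by normexp (offset 50) and ratios were normalized by loess within arrays, control spots at weight 0. Between 141 and 171 outlier spots per array were dropped, and none was saturated. Probes well above background numbered 26631 to 28514 for -F+S and 25545 to 27906 for control. The filter kept 27727 of 41174 probes, those that reached this mark with 1 and the same dye on 3 or more arrays, and the brightest stood for each of 18451 genes. Names came from the files, updated by accession (25097 probes), symbol (6333) or synonym (1640) through RefSeq (GRCm38.p6), and 8104 kept the file's name. Levels are channel values after Aquantile scaling. Ratios were tested against 0 with limma 3.58.1 (R 4.3.3, data.table at version 1.17.8), two-sided, with Benjamini-Hochberg adjustment over all genes and a threshold of 0.05. The test was also run on simulated data, with spreads taken from the real ratios. Far fewer genes were changed in the simulation than were called here, and no result above rests on it. The number of arrays limits the precision: the median SD of a ratio between arrays was 0.15. Each array pairs 1 -F+S with 1 control sample, so the ratio is already within pairs.

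The genes, lists, roles and tests were chosen with earlier results of these data known. All members are named, channel levels are given for up to 3 genes of each role by the size of limma's statistic, and the 5 lowest and 5 highest called genes of the wider list are named. Alternatives changed the normalization, signals, background, filter, probe, base composition and arrays used. Probe positions are those of the files (mm9).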

Additional observations from a re-analysis of the deposited data

Results flagged for a closer look

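In 3 genes 1 array stood far from the other 3 by Dixon's test for 4 values, out of 50 genes and role medians tested, and chance alone gives about 5% of such groups. Gar1 had a ratio of -0.62 on array 1, against 1.06 to 1.20 on the others. Tsr1 had -0.096 on array 4, against -0.52 to -0.48. Nop16 had -1.04 on array 3, against -0.67 to -0.62. The 3 values fall on 3 different arrays.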

How the results depend on the processing

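Of the 29 genes called, 15 kept their call under every alternative run, 13 lost it under at least 1, and Nop14, Pes1 and Nip7 turned in sign under at least 1. The number called lower was 33 of 43 with the scanner's log ratio, where 42.6% of all genes were called lower. It was 23 with median centring, where 19.4% of all genes were. Without 1 array it ranged from 22 to 24, where 27.1% to 29.2% of all genes were. With the second-brightest probe it was 7 of 19, where 26.9% of all genes with such a probe were. The number called higher was 0 with the scanner's log ratio, 1 with median-centred processed signals, without the dim filter and with the base composition trend removed, and 1 to 3 without 1 array. Their median was -0.41 with median centring, -0.51 with the scanner's log ratio, -0.46 with median-centred processed signals, -0.12 with the second-brightest probe, and -0.29 to -0.26 without 1 array. The wider list's median was -0.30, -0.42, -0.37 and -0.17 (54 genes) in the same order, and -0.31 to -0.26 without 1 array. Over all genes, 3572 were called lower with median centring, against 5695 as reported, and 1780 lower and 2481 higher with the second-brightest probe (6608 genes). In the fit on median-centred processed signals limma used 1 common spread for all genes, so its calls rest on that.

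Values that turned in sign were, with median centring, Pno1 -0.051, Ncl -0.37 and Npm1 -0.42, and with the scanner's log ratio Polr1d -0.013 and Pno1 -0.047. The second-brightest probe gave Dkc1 0.21, Nop14 0.39, Pes1 0.028, Nip7 0.39 and Npm1 -0.12, and medians of 0.21 for box H/ACA (1 gene) and 0.039 for polymerase I subunits (2 genes). The mean of probes gave Dkc1 0.063, Nip7 0.097, Ncl -0.093 and Npm1 -0.056. Removing the base composition trend gave Npm1 -0.14 and Nolc1 0.0039. Without 1 array, Rrn3 ranged from -0.091 to 0.070, Ncl from -0.10 to 0.14 and Npm1 from -0.075 to 0.064. The cause of these changes was not tested. A shift common to every gene cannot be seen in these ratios, and 4 arrays limit what small ratios can show.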
